A study of Mus musculus with 8 samples.

Results

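The genes described here are 10 genes of the unfolded protein response, chosen by name from what is known of the pathway, at a time when earlier results of these data were known. They are the sensors Eif2ak3, Ern1 and Atf6, the transcription factors Atf4, Ddit3 and Xbp1, the targets or partners Herpud1, Trib3 and Sel1l, and Creb3l4, a relative of Atf6. Of the 10 genes, 9 were found among the 17127 genes of the table of expression values, and Trib3 is not analysed here. Expression was measured by RNA-seq of whole testis, the organ as a mixture of germ cells and somatic cells, from males aged 4 months. The wild-type group held 4 mice (wild type 1 to 4). The mutant group held 3 mice with the genotype Iqch-/- (mutants 1, 2 and 4), while mutant 3 is not analysed here. The labels name no treatment for either group. The mutation came from CRISPR-Cas9 editing of B6CBAF1 zygotes, which made small deletions in a late coding exon of Iqch, an IQ motif gene of the testis. The labels do not say which of the edited lines gave the libraries. Such an allele is expected to shorten the protein and need not remove the RNA, and the protein present in these testes is not measured here. Each library came from a single animal.

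Proteins that enter the secretory pathway are folded in the endoplasmic reticulum (ER), and the unfolded protein response adjusts this organelle when unfolded proteins build up. It has 3 branches, each named after a sensor in the ER membrane. PERK, the product of Eif2ak3, phosphorylates the translation factor eIF2alpha, which lowers protein synthesis in general but favours translation of Atf4 mRNA, and ATF4 in turn can raise transcription of Ddit3 (CHOP) and Trib3. IRE1, the product of Ern1, cuts a short stretch out of Xbp1 mRNA in the cytoplasm, so that an active XBP1 transcription factor is made. ATF6 moves to the Golgi, is cut by 2 proteases and enters the nucleus, where it raises transcription of ER chaperones. Activation of all 3 sensors is thus a matter of phosphorylation, mRNA cutting or protein cleavage, none of which is measured by the amount of mRNA per gene. Male germ cells depend on the ER for the proteins of the acrosome and of the sperm surface, and they use chaperones of their own, such as calmegin (Clgn), calsperin (Calr3) and the disulphide isomerase relative Pdilt.

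Several sequences show where these branches act, and they are given on GRCm39. The first is the stretch of Xbp1 that IRE1 removes, at chr11:5474266-5474315 on the plus strand, in which capitals mark the 26 bases that 1 of the 24 annotated transcripts lacks.

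Xbp1: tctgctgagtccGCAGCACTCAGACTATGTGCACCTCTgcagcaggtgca

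A length of 26 bases leaves a remainder of 2 after division by 3, so its removal changes the reading frame downstream. Because the first bases of the stretch recur just after it, 7 placements of the removed bases give the same spliced sequence. The stretch lies inside an exon in 19 of the transcripts, 13 of them within the coding sequence. Reads counted per gene do not tell spliced from unspliced Xbp1 mRNA, so the Xbp1 values given here are sums of both forms.

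ATF6 and XBP1 act through ER stress elements. The letters searched were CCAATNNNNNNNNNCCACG for the element known as ERSE and ATTGGNCCACG for ERSE-II, on both strands of the 250 bases before the canonical start of each tested protein-coding gene. ERSE was found before 15 of 13784 genes (0.109%) and ERSE-II before 10 (0.0725%). The other letters searched were TGACGTGG, the core of the UPR element, found before 0.617% of genes, TGACGTCA, the cyclic AMP response element (CRE), before 2.03%, and TGATGCAAT, a composite site for C/EBP and ATF4 (CARE), before 0.0871%. Among the members, Herpud1 held ERSE-II 32 to 22 bases before its start and Ddit3 held the composite site, on the opposite strand, 200 to 192 bases before its start. These letters were not in the windows of the other 7 members. Both matches are printed below on the strand of the gene with the match in capitals, Herpud1 at chr8:95112999-95113021 and Ddit3 at chr10:127126354-127126374, both on the plus strand. The next 8 sequences are examples of ERSE and ERSE-II in front of chaperone, folding and degradation genes, written in the direction of the element with its fixed bases in capitals. They are shown because the values of those genes are set beside the sensors further on. Hsp90b1 holds a further ERSE that is not printed.

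Herpud1: gcgctgATTGGGCCACGttggac
Ddit3: ccaaacATTGCATCAtccccg
Hspa5, chr2:34662037-34662055, plus strand: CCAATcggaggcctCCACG
Hsp90b1, chr10:86541502-86541520, minus strand: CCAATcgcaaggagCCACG
Calr, chr8:85573704-85573722, plus strand: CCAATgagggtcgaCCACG
Canx, chr11:50216627-50216645, minus strand: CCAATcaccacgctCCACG
Pdia6, chr12:17316492-17316510, plus strand: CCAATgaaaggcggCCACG
Syvn1, chr19:6096562-6096580, plus strand: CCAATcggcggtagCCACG
Derl3, chr10:75729076-75729094, minus strand: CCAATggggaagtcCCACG
Nucb1, chr7:45159863-45159873, plus strand: ATTGGtCCACG

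The values are CPM, the read count of a gene scaled to a common library total over the genes of the table. All values were whole multiples of 1 step per library. With that step taken as 1 read, the libraries held 32064384 to 37551057 reads, and 1 read was worth 0.0266 to 0.0312 CPM. Iqch itself, the edited gene, was at 217, 206, 216 and 193 CPM in wild type 1 to 4 and at 67.7, 64.8 and 69.2 CPM in mutants 1, 2 and 4. The groups did not overlap, and the mutant level was 0.324 times the wild-type level (log2 fold change -1.63 ± 0.05 SE, exact permutation test over 35 splits, two-sided, p = 0.029, or 0.057 with the smaller tail doubled). Iqch RNA was therefore lower in each mutant library but present. Differences were tested with limma on log2(CPM + 0.1) over 17126 genes, with Benjamini-Hochberg adjusted p-values (FDR), and a gene was called at an FDR below 0.01. An error after ± is an SD for CPM (n = 4 wild-type or n = 3 mutant libraries) and for ratios, and an SE of the fit for a log2 fold change. Of the 9 members, 6 were called higher and 2 lower in the mutant, and 1 was not called. This has to be read against the whole table, in which 50.4% of genes were called, 36.3% higher and 14.2% lower. The groups did not overlap for 8 of the 9 members, against 62.3% of all genes, and 6 members had each mutant library above each wild-type library, against 42.8% of all genes (2 members had each mutant library below, against 19.5%). Over the 9 members the log2 fold changes had a median of 0.55, against 0.12 over all genes. A second scaling, by median-of-ratios size factors, brought these medians to 0.41 and -0.01 and called 52.1% of genes (27% higher and 25.1% lower). It again gave 6 members higher, 2 lower and 1 not called, and under it the groups overlapped for none of the 9, where 64.3% of all genes did not overlap. In a whole organ, fewer cells of a type and less RNA per cell cannot be told apart.

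**Figure D1:**
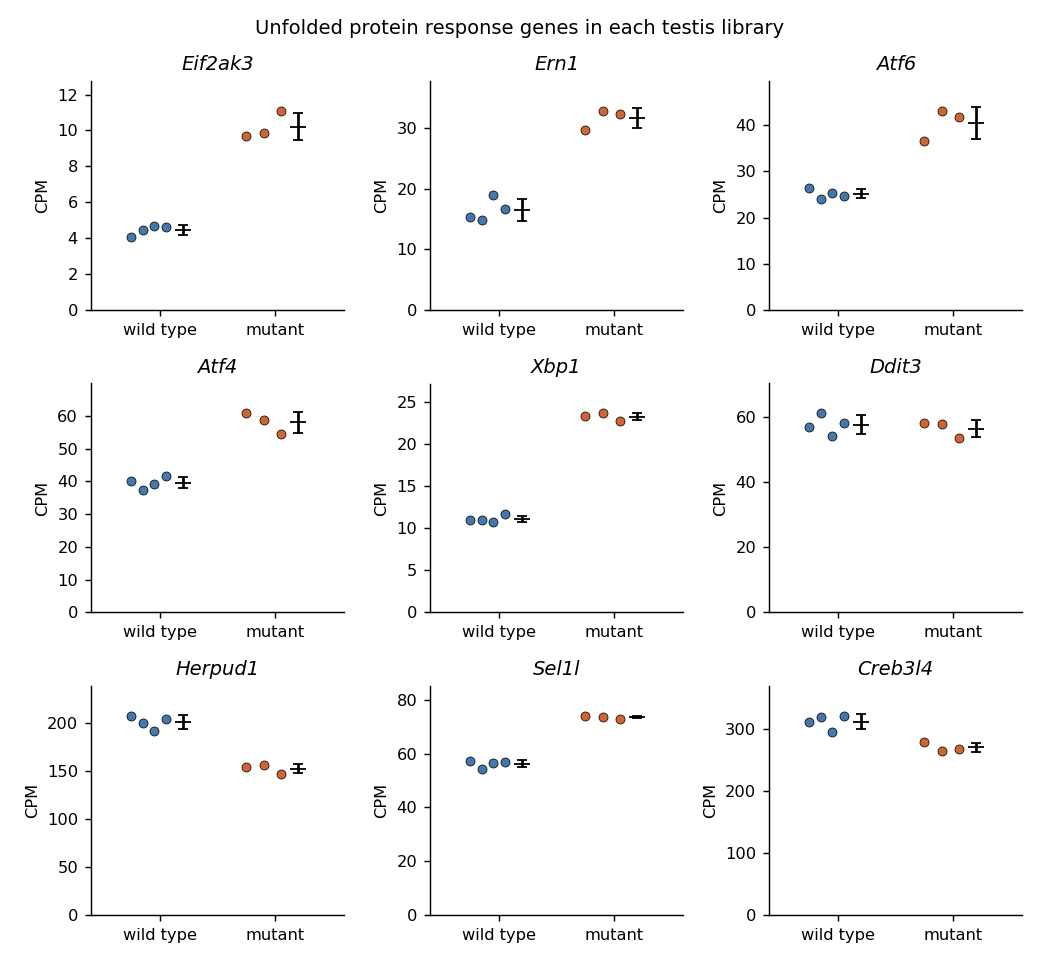
CPM of the 9 members in each testis library, each gene on an axis of its own that starts at 0. Blue points are wild type 1 to 4, orange points are mutants 1, 2 and 4, and black marks are means with SDs. Eif2ak3, Ern1, Atf6, Atf4, Xbp1 and Sel1l lay above the wild-type range in each mutant library, Herpud1 and Creb3l4 lay below it, and Ddit3 overlapped it.

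The 3 sensors were all higher in the mutant. Eif2ak3 (PERK; chromosome 6, 70821461 to 70882235) was at 4.04, 4.43, 4.69 and 4.61 CPM in wild type 1 to 4 and at 9.68, 9.86 and 11.1 CPM in mutants 1, 2 and 4. No mutant library came near the wild-type range, and the mean rose from 4.44 ± 0.29 to 10.2 ± 0.8 CPM, 2.30 times the wild-type level (log2 fold change 1.18 ± 0.10, limma FDR 7.8e-07). It was the member with the lowest level per length, with 135 to 361 reads per library, so that counting alone gives an error of up to 8.61% in a single library. Ern1 (IRE1; chromosome 11, 106283818 to 106378686) was at 15.4, 14.9, 19.0 and 16.6 CPM in the wild type and at 29.8, 32.9 and 32.4 CPM in the mutant. Wild type 3 was the highest of its group, still well below the lowest mutant, and the mutant mean was 1.92 times the wild-type mean (log2 fold change 0.94 ± 0.09, limma FDR 1.0e-06). Atf6 (chromosome 1, 170532026 to 170696208) was at 26.5, 24.0, 25.4 and 24.7 CPM in the wild type. It was at 36.5, 43.1 and 41.8 CPM in the mutant, with mutant 1 the lowest of the group. The groups did not overlap and the mutant level was 1.61 times that of the wild type (log2 fold change 0.68 ± 0.07, limma FDR 2.6e-06). Relative to the median gene of the table, the sensors were higher by 1.06, 0.82 and 0.56 on the log2 scale for Eif2ak3, Ern1 and Atf6. Among all tested genes ordered by log2 fold change, they stood at percentiles 93.9, 90.1 and 83.3.

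Whether the sensors rose by the same factor was examined with ratios inside each library, which do not depend on how libraries are scaled. The log2 ratio of Atf6 to Eif2ak3 was 2.68, 2.41, 2.41 and 2.40 in the wild type and 1.90, 2.12 and 1.90 in the mutant. The mutant mean lay 0.50 below the wild-type mean and the groups did not overlap (exact permutation test, two-sided, p = 0.029, the smallest p that 3 against 4 libraries allow). For Ern1 over Eif2ak3 the mean log2 ratio was 1.86 ± 0.11 in the wild type and 1.63 ± 0.10 in the mutant (exact permutation p = 0.057). The closest libraries differed only in the fourth decimal, at 1.7295 in wild type 2 and 1.7291 in mutant 2. For Ern1 over Atf6 the mean log2 ratio was -0.61 ± 0.16 in the wild type and -0.35 ± 0.05 in the mutant (exact permutation p = 0.057). Over the 7 ratios examined among members, 4 had an unadjusted p under 0.05. After Benjamini-Hochberg adjustment 0 lay below 0.05, with the lowest adjusted p at 0.05 (0.067 with the smaller tail doubled). These 4 stood at the smallest p possible, so a larger difference would not have lowered their adjusted p. With the smaller tail doubled, no permutation p can lie below 0.057.

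**Figure D2:**
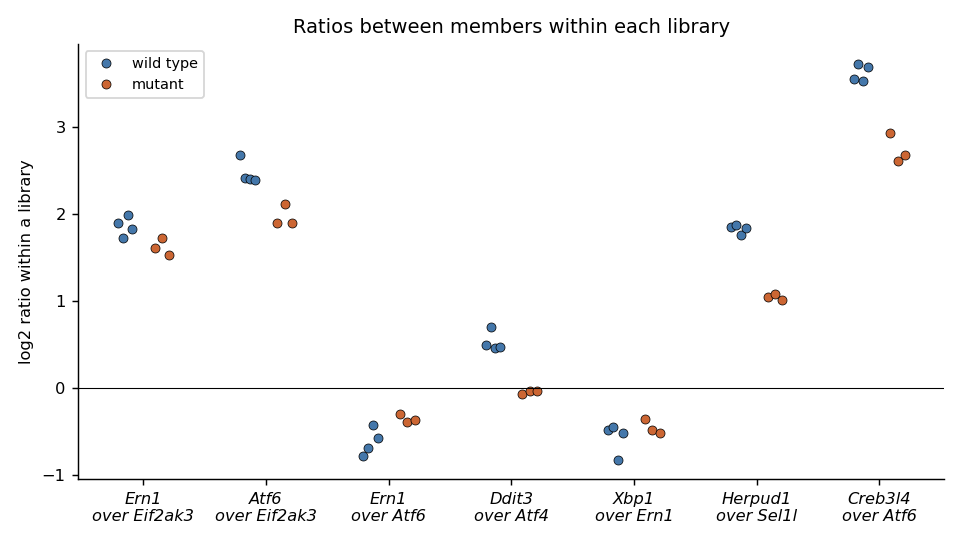
Log2 ratio of the CPM of 2 members within each library, for the 7 pairs examined, with wild-type libraries in blue and mutant libraries in orange. Ddit3 over Atf4, Herpud1 over Sel1l, Creb3l4 over Atf6 and Atf6 over Eif2ak3 were lower in each mutant library than in any wild-type library. So was Ern1 over Eif2ak3, by a very small margin. Ern1 over Atf6 was higher in each mutant library, and Xbp1 over Ern1 overlapped.

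Of the transcription factors below the sensors, Xbp1 and Atf4 were called higher and Ddit3 was not called. Xbp1, which encodes the factor activated by IRE1 (chromosome 11, 5470606 to 5483027), was at 10.98, 10.95, 10.71 and 11.66 CPM in the wild type and at 23.3, 23.6 and 22.7 CPM in the mutant. The libraries of each group lay close together and the groups far apart, with a mutant level 2.10 times that of the wild type (log2 fold change 1.06 ± 0.07, limma FDR 5.9e-08). Of its annotated exon bases, 22% overlap exons of Ccdc117 on the opposite strand. Ccdc117 was at 140.4 to 150.1 CPM in the wild type and 138 to 144 CPM in the mutant, and since the strand setting of the counting is not stated, the share of Xbp1 reads that belong to it is not known. The log2 ratio of Xbp1 to Ern1 was -0.56 ± 0.17 in the wild type and -0.45 ± 0.08 in the mutant, with overlapping groups (difference 0.12, exact permutation p = 0.46).

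Atf4, whose translation PERK favours (chromosome 15, 80139372 to 80141745), was at 40.2, 37.5, 39.1 and 41.8 CPM in the wild type. Its values in the mutant were 60.7, 58.7 and 54.5 CPM, each above the wild-type range. The mutant mean was 1.46 times the wild-type mean (log2 fold change 0.55 ± 0.06, limma FDR 4.2e-06). Ddit3, which encodes CHOP, a factor downstream of ATF4 that is linked to cell death under prolonged stress (chromosome 10, 127124268 to 127132163), was at 56.9, 61.0, 54.1 and 58.2 CPM in the wild type. In the mutant it was at 58.0, 57.6 and 53.4 CPM. The groups overlapped and no difference was called, and 20.2% of all genes were likewise within 0.1 of 0 on the log2 scale (log2 fold change -0.03, 95% interval -0.15 to 0.09, limma FDR 0.641). With size factors the log2 fold change of Ddit3 was -0.17 (limma FDR 0.020), again not called, and without mutant 4 it was 0.01 (limma FDR 0.935). Ddit3 and Atf4 were also set against each other within libraries. The log2 ratio of Ddit3 to Atf4 was 0.50, 0.70, 0.47 and 0.48 in the wild type and -0.07, -0.03 and -0.03 in the mutant, with no overlap (difference -0.58, exact permutation p = 0.029, adjusted p = 0.05, not below the threshold).

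The Ddit3 values carry a limit of their own. Exons of Mars1, the cytoplasmic methionyl-tRNA synthetase gene on the opposite strand, overlap 64.1% of the annotated exon bases of Ddit3, and the lncRNA Gm4189 overlaps 17%. Mars1 was at 43.8 to 45.6 CPM in the wild type and 54.02 to 58.15 CPM in the mutant (log2 fold change 0.34 ± 0.05, limma FDR 6.9e-05). How the reads of this overlap were assigned was not tested.

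The targets tied to protein disposal split. Herpud1, a stress-induced ER membrane protein that helps to bring misfolded proteins to degradation (chromosome 8, 95113022 to 95123141), was at 208, 200.5, 191 and 205 CPM in the wild type and at 154, 156 and 147 CPM in the mutant. All mutant libraries lay below the lowest wild-type library, and the level fell to 0.758 times that of the wild type (log2 fold change -0.40 ± 0.04, limma FDR 4.9e-06). Herpud1 is the member with the ERSE-II printed above. Sel1l, the adaptor of the ubiquitin ligase of ER-associated degradation (chromosome 12, 91772799 to 91815982), was at 57.1, 54.5, 56.5 and 57.1 CPM in the wild type. In the mutant it was at 74.1, 73.7 and 73.1 CPM, the narrowest mutant group of the 9 members, with a coefficient of variation of 0.684%. Its mutant level was 1.31 times the wild-type level (log2 fold change 0.39 ± 0.04, limma FDR 9.1e-06). The log2 ratio of Herpud1 to Sel1l was 1.86, 1.88, 1.76 and 1.84 in the wild type and 1.05, 1.08 and 1.01 in the mutant, with no overlap (difference -0.78, exact permutation p = 0.029, adjusted p = 0.05).

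Creb3l4 encodes a membrane-bound transcription factor related to ATF6 that is known from spermatids (chromosome 3, 90144103 to 90150845). It was at 313, 321, 296 and 322 CPM in the wild type and at 279, 265 and 269 CPM in the mutant. The groups did not overlap, and the mutant level was 0.866 times the wild-type level (log2 fold change -0.21 ± 0.04, limma FDR 0.00086). Exons of Jtb on the opposite strand overlap 10% of its exon bases, and Jtb was at 11.58 to 13.95 CPM in the wild type and 24.6 to 27.4 CPM in the mutant. Creb3l4 and Atf6 are related factors. Their log2 ratio was 3.56, 3.73, 3.54 and 3.70 in the wild type and 2.93, 2.62 and 2.68 in the mutant (difference -0.89, exact permutation p = 0.029, adjusted p = 0.05).

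**Figure D3:**
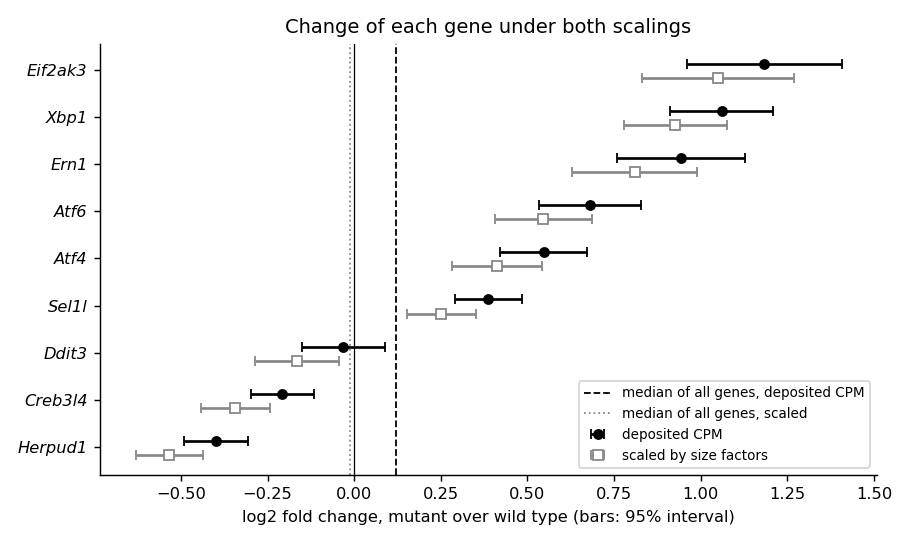
Log2 fold change of the 9 members, mutant over wild type, from the deposited CPM (filled circles) and after division by size factors (open squares), with 95% intervals of the fit. Vertical lines are 0 and the median of all genes under each scaling, 0.12 and -0.01. The order of the members and the side of 0 of each were the same under both scalings, and only the interval of Ddit3 on the deposited CPM spans 0.

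Levels can be compared between genes only per length. Per kilobase of annotated exon, the wild-type levels were 130 ± 5 CPM for Creb3l4, 51.9 ± 1.8 for Herpud1, 16.7 ± 0.8 for Atf4, 10.3 ± 0.5 for Ddit3 and 6.21 ± 0.14 for Sel1l. The sensors and Xbp1 stood lower, at 2.57 ± 0.11 CPM per kilobase for Atf6, 1.63 ± 0.18 for Ern1, 1.60 ± 0.06 for Xbp1 and 0.699 ± 0.045 for Eif2ak3. The wild-type ranges of Ern1 and Xbp1 overlapped, and those of all other neighbours in this order did not. The 2 members at the top of the order, Creb3l4 and Herpud1, were the 2 called lower in the mutant. The 4 members at the bottom were the 4 with the largest log2 increases. The lengths merge the exons of all annotated transcripts, such as 6931 bases for Xbp1 and 5579 for Ddit3, against 2374 for Atf4 and 2411 for Creb3l4. A merged length can exceed that of the RNA present, which makes the level per kilobase too low. The order, and which members stand at its bottom, therefore depends on the annotation. This is a description of 9 genes.

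To set more of the pathway beside the members, 7 lists of pathway genes were drawn up from knowledge of the response. Results of these data were already known then. The lists held 93 genes, 87 of which were tested, members included. The counts and medians per list given below include the members on that list, so they are no separate check of the members. Of these 87, 46 were called higher and 9 lower, a share of 63.2% called against 50.4% of all genes (36.3% higher and 14.2% lower). After scaling by size factors 33 were called higher and 20 lower, where 27% of all genes were called higher and 25.1% lower. Without mutant 4, only 5 of the list genes were called lower. With the members left out, 78 list genes were tested, of which 40 were called higher and 7 lower. That is a share of 60.3% called, and their median log2 fold change was 0.19 against 0.12 over all genes. With size factors 27 of the 78 were called higher and 18 lower, or 57.7% called against 52.1% of all genes.

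In the PERK branch, 9 of the 14 tested genes were called higher and 0 lower, with a median log2 fold change of 0.59 against 0.12 for all genes. Cebpb, which encodes a transcription factor that pairs with ATF4, had the largest increase of all listed genes. It was at 0.874 to 1.32 CPM in the wild type and at 4.58 to 5.52 CPM in the mutant (log2 fold change 2.11 ± 0.17, limma FDR 4.5e-07). Its lowest library held 30 reads, which gives a counting error of 18.3%. Within this list the next was Eif2ak3 itself. The 5 genes that were not called included Ddit3, and the lowest log2 fold change of the list was that of Asns, -0.19 (limma FDR 0.0405). With size factors 8 PERK genes were called higher and 3 lower, where 27% of all genes were called higher and 25.1% lower. The 3 were Asns (log2 fold change -0.32, limma FDR 0.00193), Cebpg and Eif2s1. Trib3 and 3 other listed genes of this branch are not analysed here. PERK is 1 of 4 kinases that phosphorylate eIF2alpha, the others sensing haem, double-stranded RNA and amino acid shortage. Eif2ak3 had by far the largest change of the 4. Eif2ak4 (GCN2), the next, was at 11.5 to 13.7 CPM in the wild type and at 14.7 to 15.9 CPM in the mutant (log2 fold change 0.30 ± 0.08, limma FDR 0.0055). On the deposited CPM 3 of the 4 kinase genes were called higher, and with size factors, without wild type 2 or without mutant 4 only 1.

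In the IRE1 branch, 11 of the 13 tested genes were called higher and 0 lower, with a median log2 fold change of 0.38. Xbp1 and Ern1 had the largest increases of the list, and the others spanned -0.11 to 0.92 on the log2 scale. The lowest was Dnajb9, which also stands in the chaperone list and was not called (log2 fold change -0.11 ± 0.05, limma FDR 0.0847). After scaling by size factors 7 of the 13 were called higher and 1 lower, where 27% of all genes were called higher and 25.1% lower. The 1 called lower was Dnajb9 (log2 fold change -0.25, limma FDR 0.0012).

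In the ATF6 branch, 7 of 12 genes were called higher and 1 lower, with a median log2 fold change of 0.25. Wfs1, which encodes the ER membrane protein wolframin, was at 1.95 to 2.82 CPM in the wild type and at 4.54 to 5.64 CPM in the mutant (log2 fold change 1.16 ± 0.16, limma FDR 3.7e-05), with 64 reads in its lowest library. Mbtps2, the gene of the second protease that cuts ATF6 in the Golgi, was at 4.18 to 5.36 CPM in the wild type and at 7.33 to 9.11 CPM in the mutant (log2 fold change 0.75 ± 0.12, limma FDR 0.00017). Sdf2l1, a partner of ER chaperones, was the gene called lower, at 41.7 to 50.4 CPM in the wild type and 35.8 to 40.5 CPM in the mutant (log2 fold change -0.26 ± 0.07, limma FDR 0.0064). That call was lost when wild type 1, 2 or 4 or mutant 2 or 4 was left out. Hspa5, which encodes BiP, the main ER chaperone and the textbook target of ATF6, was not called. It was at 530, 538, 617 and 514 CPM in wild type 1 to 4 and at 562, 574 and 568 CPM in mutants 1, 2 and 4. Wild type 3 alone lay above the mutant libraries (log2 fold change 0.05 ± 0.05, limma FDR 0.438, and -0.08 with size factors).

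Of the 24 chaperones and folding enzymes, 4 were called higher, 4 lower and 16 not, a share of 33.3% called. The median log2 fold change was 0.03, below that of all genes, 0.12. P4hb, a protein disulphide isomerase, was at 81.7 to 88.5 CPM in the wild type and 114 to 126 CPM in the mutant (log2 fold change 0.49 ± 0.05, limma FDR 2.3e-06). Uggt1, which senses misfolded glycoproteins, had a log2 fold change of 0.47 ± 0.07 (limma FDR 5.5e-05). The 2 with the largest fall were chaperones of male germ cells. Calr3 was at 123 to 150.4 CPM in the wild type and 95.5 to 107 CPM in the mutant (log2 fold change -0.39 ± 0.07, limma FDR 0.00036). Pdilt was at 165 to 179 CPM in the wild type and 138 to 144 CPM in the mutant (log2 fold change -0.29 ± 0.04, limma FDR 6.1e-05). Clgn, at 690 to 780 CPM in the wild type and 660.4 to 693 CPM in the mutant, was not called (limma FDR 0.0303), and was called with size factors (log2 fold change -0.25, limma FDR 0.00038). Scaling by size factors gave 3 higher and 10 lower in this list, where 27% of all genes were called higher and 25.1% lower. On the deposited CPM, 2 were lower without wild type 1 or without mutant 4.

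Among 24 genes of ER-associated degradation, 11 were called higher, 4 lower and 9 not, with a median log2 fold change of 0.12, the same as over all genes. Os9, a lectin that hands misfolded glycoproteins to the SEL1L complex, was at 59.0 to 66.6 CPM in the wild type and at 108 to 117 CPM in the mutant (log2 fold change 0.82 ± 0.05, limma FDR 7.0e-08). Edem3, which trims mannose from misfolded glycoproteins, was at 20.7 to 25.1 CPM in the wild type and at 33.9 to 38.5 CPM in the mutant (log2 fold change 0.70 ± 0.08, limma FDR 6.1e-06). Herpud1 had the largest fall. Ube2j1, a ubiquitin-conjugating enzyme of the ER membrane, was at 479 to 499.6 CPM in the wild type and at 405 to 430.4 CPM in the mutant (log2 fold change -0.23 ± 0.04, limma FDR 0.00017). Sel1l2, a paralogue of Sel1l, went the other way from Sel1l, at 75.8 to 85.9 CPM in the wild type and 69.2 to 72.0 CPM in the mutant (log2 fold change -0.19 ± 0.05, limma FDR 0.0094). With size factors 6 of the 24 were called higher and 6 lower, near the shares over all genes, 27% and 25.1%. Without mutant 2, 7 were called higher, and 2 were called lower without wild type 3, mutant 2 or mutant 4.

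All 4 tested genes of the CREB3 family, membrane-bound factors that are released by the same proteases as ATF6, were called, against 50.4% of all genes. Creb3l1 was at 4.67 to 5.89 CPM in the wild type and 15.2 to 17.4 CPM in the mutant (log2 fold change 1.62 ± 0.10, limma FDR 4.3e-08). Creb3l2 was at 4.51 to 6.07 CPM in the wild type and 13.6 to 17.1 CPM in the mutant (log2 fold change 1.54 ± 0.12, limma FDR 3.1e-07). With these and Creb3 higher, Creb3l4 was the member of its family called lower, and its wild-type level per kilobase of exon was the highest of the 4.

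**Figure D4:**
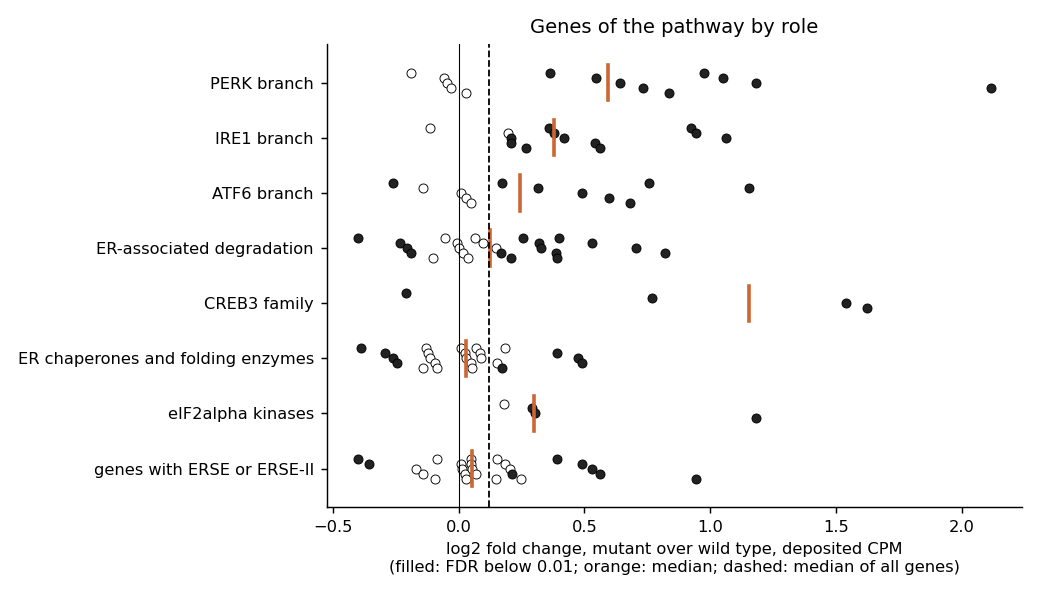
Log2 fold change of each tested gene of the 7 pathway lists, and of the 25 genes with ERSE or ERSE-II before their start, mutant over wild type on the deposited CPM. Filled points have an FDR below 0.01, orange bars are medians and the dashed line is the median of all genes, 0.12. The medians of the PERK branch (0.59) and the CREB3 family (1.16) lie to the right of that line and those of the chaperones (0.03) and of the ERSE genes (0.05) to its left.

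The genes that carry the elements printed above can be set beside the sensors. ERSE or ERSE-II was found before 25 tested genes, of which 14 stand in the pathway lists. Some of these sites count for 2 genes that start back to back, such as Creld2 and Alg12. Of the 25 genes, 6 were called higher, 2 lower and 17 not, where 36.3% of all genes were called higher and 14.2% lower. Their log2 fold changes ran from -0.40, that of Herpud1, to 0.94, with a median of 0.05 against 0.12 over all genes. Of the 14 in the lists, 2 were called higher, Derl3 (log2 fold change 0.53 ± 0.06, limma FDR 1.4e-05) and Nucb1 (0.49 ± 0.05, limma FDR 4.1e-06), 1 lower and 11 not. Hspa5, Hsp90b1, Calr, Canx, Pdia6 and Syvn1 were among the genes that were not called, with log2 fold changes from 0.01 to 0.18. After scaling by size factors 4 of the 25 were called higher and 6 lower, where 27% of all genes were called higher and 25.1% lower. The elements were picked after these values were known, so this is a description, and it says nothing of whether a factor was bound.

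Markers of several testis cell types also differed between the groups. Their counts stand against 36.3% of all genes called higher and 14.2% lower (27% and 25.1% with size factors). All 7 markers of elongating spermatids that were tested were called lower, with summed levels of 22669 to 23936 CPM in the wild type and 14365 to 16521 CPM in the mutant. Of 7 round spermatid markers 4 were called lower, with sums of 1234 to 1312 CPM and 1081 to 1151 CPM. In the other direction, 6 of 7 Leydig cell markers were called higher, with sums of 1021 to 1224 CPM in the wild type and 4296 to 4472 CPM in the mutant, as were all 7 tested Sertoli cell markers (169.9 to 178 CPM and 298 to 329 CPM) and all 8 macrophage markers (75.02 to 82.72 CPM and 199 to 229.5 CPM). Spermatogonial markers were called higher in 4 of 7 cases, endothelial markers in 2 of 5, myoid markers in 1 of 4 and spermatocyte markers in 1 of 7, and 0 of these were called lower on the deposited CPM. With size factors, 1 of 7 spermatogonial markers was called higher, 3 of 7 spermatocyte markers and 1 of 5 endothelial markers were called lower, 7 of 7 round spermatid markers were called lower, and 5 of 7 Sertoli cell markers were called higher. The Leydig cell, macrophage, myoid and elongating spermatid counts, and the 2 endothelial markers called higher, were as on the deposited CPM, and 0 spermatocyte markers were called higher. The spermatocyte sums overlapped, at 939 to 965 CPM in the wild type and 883 to 964 CPM in the mutant. No marker was at 0 in any library. The part of these shifts in the values of the unfolded protein response genes was not tested.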

How the data were processed

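RNA-seq of testis was done by the authors on total RNA extracted with TRIzol and treated with DNase. The authors used Trimmomatic for trimming, Subread for mapping to GRCm39 and featureCounts for counting per gene, and made their own calls with edgeR and DESeq2, whose results are not used here. Strand setting and annotation release are not given in the sources used here. The deposited values are CPM for 17127 genes in 7 libraries. They have the same sum in each library, so no between-library factor is in them, and genes with low counts had been left out by the authors.

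Tests ran on log2(CPM + 0.1) in limma 3.58.1 (R 4.3.3), with lmFit, trended eBayes and no covariate, for the 17126 genes that reached 2.2 CPM in 2 samples of either group. Benjamini-Hochberg adjustment covered all these genes, with a threshold of 0.01 (FDR). The pseudocount makes the fold change of a low gene too small. Ratios of members were tested with exact permutation tests over libraries, two-sided, and adjusted over 7 pairs. On simulated libraries the fit called 199 of 199 changed genes among 16513 tested and 3 unchanged ones. Each of those changed genes was shifted by the same amount, larger than the change of most members, and nearly all genes were unchanged. The simulation therefore does not show how the fit does on smaller changes, or where 50.4% of genes are called.

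Symbols, coordinates, merged exon lengths and sequences came from GENCODE M39 on GRCm39, which held 17045 of the genes. Other steps used Python 3.11.15, pandas 2.3.3 and SciPy 1.17.1, and figures matplotlib 3.10.9. Alternatives were size factors (median of ratios), pseudocounts of 0.01 and 1, a minimum of 5 CPM or none, a block on replicate number, and leaving out single libraries. Genes that share reads with overlapping genes or near-identical copies are uncertain. The members and lists were chosen with earlier results of these data known. The text names the members, Iqch, Hspa5, Calr3, Clgn, Pdilt, Sel1l2 and, per list, up to 2 called genes with the largest change in each direction whose groups do not overlap. Creb3, Dnajb9, Asns, Cebpg, Eif2s1, overlapping genes, motifs and the genes named with them were chosen after values were seen. The limma p-values set the difference between groups against the spread between these libraries, moderated by a trend over all genes. The permutation p-values give the share of the 35 splits that differ at least as much. With 1 library per mouse, the spread between mice and that between library preparations cannot be told apart. The error given for the reads of a single library covers counting error only.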

Additional observations from a re-analysis of the deposited data

How the results depend on the processing

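The counts of members (8 called, 6 higher, 2 lower) were the same under every alternative run, including each library left out. Ddit3, which was not called, changed the sign of its log2 fold change without mutant 4 (0.0069), and values without 1 library ran from -0.060 to 0.0069. With size factors 4294 genes in all were called lower (2428 on the deposited CPM) and 20 list genes (9 on the deposited CPM). Without 1 library, the list genes called lower numbered 5 to 8 and all genes called 7237 to 8503. The replicate number as a block gave 7722 called genes, the same 8 members and 44 of the list genes. Deviations of same-numbered libraries correlated at 0.0261, 0.0094 and -0.0977, and those of other pairs at -0.0611 to 0.0725. Same-numbered libraries were thus not more alike than others, but so few pairs cannot settle whether the mice were paired. With the block, 1 of the 4 kinase genes was called higher and 2 degradation genes lower. Ratios within libraries cannot pass 0.05 with a library left out, since 3 against 3 allow no p below 0.1 and 2 against 4 none below 0.067. A ratio of Trib3 to Atf4 was planned and not run. The count tests planned as alternatives were not run, since the table held too few low values to check the reads recovered from the CPM. Among the members, depth limits Eif2ak3 most, at 135 reads in its lowest library, and among the other genes named with values Cebpb, at 30 reads.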
